A study of Triticum turgidum subsp. durum with 24 samples.

Results

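On Affymetrix GeneChip Wheat Genome Arrays hybridised with leaf RNA of 2 durum wheat cultivars, 43 probe sets (PSs) were bright in the cultivar Cappelli and near background in the cultivar Ofanto under every treatment. They were selected from 61179 PSs, the control PSs of the array being left out, by a rule on rank. The signal had to lie above the 75th percentile of the array's own PSs on all 12 Cappelli arrays and below the 60th percentile on all 12 Ofanto arrays. The rule thus used the signals of all 24 arrays, and the difference between the cultivars is given below as a description with no test. It rests on rank and not on a detection call, so a member counts as near background in Ofanto and not as absent.

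The plants were Triticum turgidum subsp. durum, and flag leaves of Ofanto, the cultivar of lower water use efficiency, and of Cappelli, that of higher efficiency, were sampled at booting according to the paper. Each of 8 groups had 3 arrays. Control plants of both cultivars were kept at a soil water content of 28% and 19 °C by day, drought stress (DS) plants at 12.5% and 19 °C, heat stress (HS) plants at 28% and 40 °C, and combined stress (CS) plants at 12.5% and 40 °C. Each cultivar stands for 1 genotype. For the leaf stage the labels have 3 leaf fully expanded, and they name another RNA extraction and another labelling kit than the paper, and describe Ofanto control replicates 2 and 3 as drought although their titles say control. With both of these arrays left out, the rule gave the same 43 PSs.

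Durum wheat is a tetraploid with an A and a B genome, so most genes exist in pairs of near-identical copies (homoeologs), and cultivars differ in which copies they hold, in their sequence and in how strongly each is transcribed. The array was designed from wheat sequences, largely of bread wheat, and a PS reports how much labelled RNA binds to a set of short oligonucleotides. A gene that 1 cultivar lacks, a gene that it does not transcribe and a transcript whose sequence differs under the oligonucleotides all give a low signal, and these cannot be told apart here. A suffix _at marks a PS meant for 1 transcript, _a_at and _s_at mark PSs shared by several transcripts, and _x_at marks one that may cross-hybridise.

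The values are the authors' MAS5 signals on a linear scale, with every array scaled to a trimmed mean of 500.3. The 60th percentile lay between 107 and 144 signal units on the 24 arrays and the 75th percentile between 317 and 405. In the 1 pair of control PSs that lay above the 60th percentile on every array, the log2 difference of the 3' from the 5' end, a check of RNA quality, averaged from -1.59 in Cappelli HS to -0.96 in Ofanto control. It differed between groups, with -1.29 in Cappelli control, and its part in the changes below was not tested. The leaf marker PSs with a name here lay at median percentiles of 90.9 in Cappelli and 93.7 in Ofanto. Their summed log2 signal ran from 14.7 to 17.5 over the Cappelli arrays and from 16.0 to 18.2 over the Ofanto arrays. The 7 named PSs of seed storage proteins lay at median percentiles of 66.4 in Cappelli and 81.5 in Ofanto. They summed to 10.3 to 13.5 in Cappelli and 12.5 to 13.6 in Ofanto. The 3 of anther and pollen lay at 74.2 and 76.5 and summed to 12.9 to 13.3 and 12.6 to 13.6. These markers of other tissues were thus not all dim, and none of the markers is a member.

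In Cappelli the members were bright and in Ofanto most of them lay in the lower part of the distribution. The median signal over the Cappelli arrays ran from 508 to 8549 between members, with a median of 1115, and that over the Ofanto arrays from 5.55 to 94.6, with a median of 25.4. At their Cappelli median 13 members ranked above the 90th percentile of the array, and at their Ofanto median 15 ranked below the 25th. Although the rule allowed Ofanto signals up to the 60th percentile, 25 members lay below the array median on all 12 Ofanto arrays. The lowest Cappelli array exceeded the highest Ofanto array by 2.78 to 33.6 times, with a median over members of 8.90, and 25 members had a gap of at least 8 times.

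**Figure D1:**
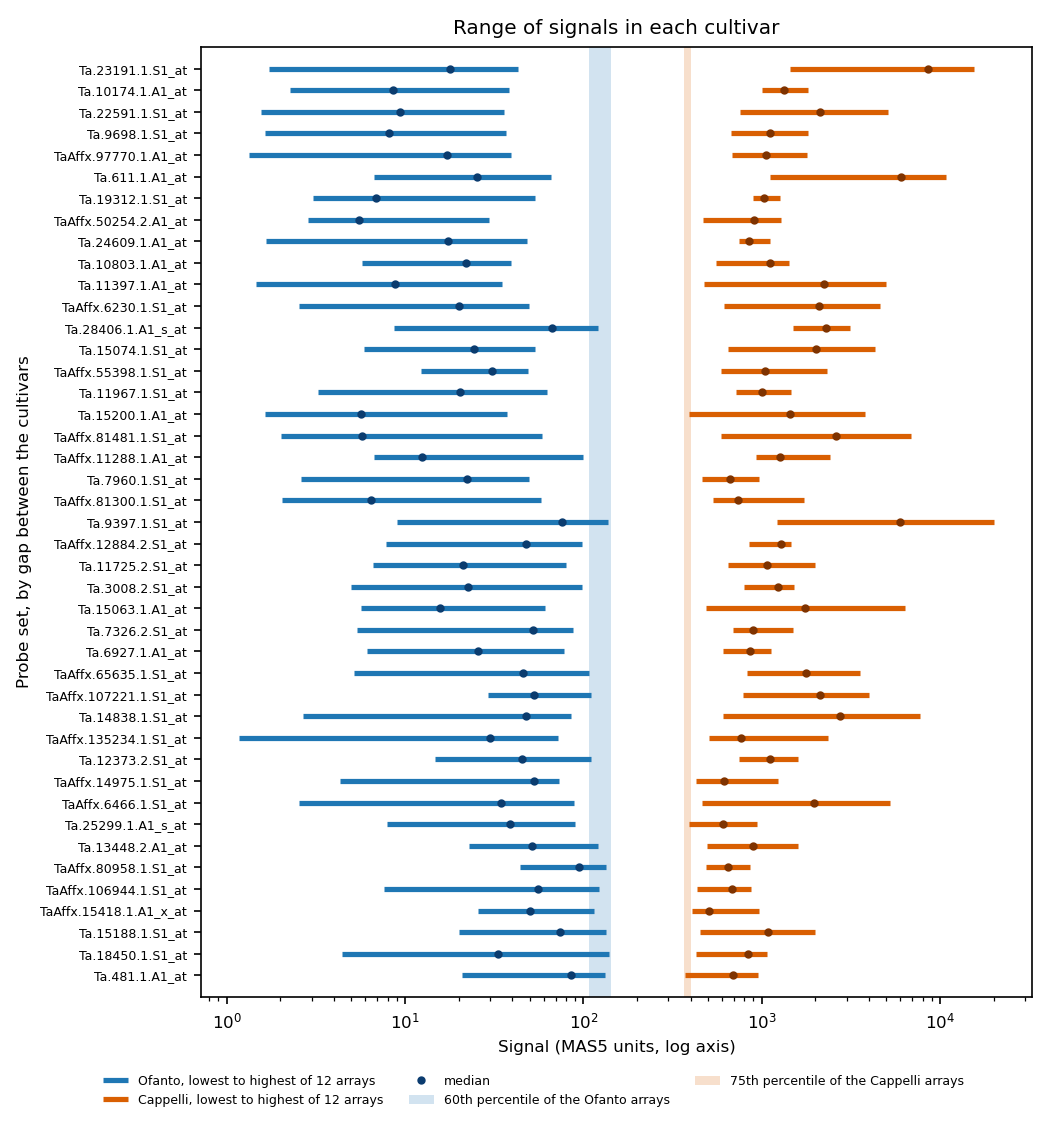
Range of the MAS5 signal (log axis) of each of the 43 PSs over the 12 Ofanto arrays and the 12 Cappelli arrays, with medians as points and the spans of the 2 percentile thresholds as bands. The bars of the cultivars do not overlap in any row because the rule requires it, and the gap between them runs from 2.78 times at the bottom to 33.6 times at the top.

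The widest gap belonged to Ta.23191.1.S1_at, which has no gene name in the sources used here. In Ofanto the control arrays read 38.3, 5.09 and 28.7, the DS arrays 19.7, 4.31 and 42.8, the HS arrays 28.0, 40.7 and 16.1, and the CS arrays 9.46, 7.23 and 1.72. In Cappelli the control arrays read 15438, 14567 and 15325, the DS arrays 12521, 12077 and 12178, the HS arrays 2021, 1439.8 and 2754, and the CS arrays 5020.0, 4523 and 1742. The lowest Cappelli array was thus 33.6 times the highest Ofanto array, though the 6 Cappelli arrays from heated plants all lay below the 6 from plants at 19 °C.

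Because a signal below the 60th percentile is near background, a ratio to it has no exact size. Set against the mean 60th percentile of the Ofanto arrays instead, the mean Cappelli signal was at least 4.35-fold higher for TaAffx.15418.1.A1_x_at and at least 45.9-fold higher for Ta.23191.1.S1_at, with a median over members of 8.63-fold. On this scale Ta.9397.1.S1_at was at least 36.9-fold higher and Ta.611.1.A1_at at least 33.1-fold. These means pool all 12 Cappelli arrays, so they are not lower bounds for each treatment. Ta.9397.1.S1_at averaged 1394 in Cappelli control and 19369 in Cappelli HS, and Ta.611.1.A1_at 8977 and 1644.

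The thresholds cut through a continuous range on the Cappelli side. The members closest to it were TaAffx.15418.1.A1_x_at, with 405 signal units on Cappelli control array 2 against a threshold of 404, Ta.481.1.A1_at, with 369.8 against 367 on Cappelli CS array 1, and Ta.15200.1.A1_at, with 391 against 387 on Cappelli HS array 2. Just outside were Ta.12373.2.S1_x_at, with 393 against 404 on Cappelli control array 3, Ta.13689.1.S1_at, with 367 against 387 on HS array 2, and Ta.7835.1.S1_x_at, with 379 against 404 on control array 2. On the Ofanto side the closest members were Ta.18450.1.S1_at and Ta.9397.1.S1_at, both within 2 units of the 139.8 of Ofanto HS array 3, and Ta.13448.2.A1_at, with 120.1 against 122 on CS array 2. TaAffx.8012.1.S1_at missed by 134.3 against 134.1 on Ofanto control array 1. TaAffx.36658.1.S1_at missed by 116 against 111 on CS array 3, and TaAffx.107769.1.S1_at, which missed on 3 arrays in all, by 150.0 against 134.1 on control array 1. Together, 10 PSs missed the rule on 1 array, 8 of them on a Cappelli array and 2 on an Ofanto array.

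The requirement that a signal stay high in heat removed most candidates. Above the 75th percentile on the 3 Cappelli control arrays and below the 60th on all 12 Ofanto arrays were 331 PSs. Of these, 190 also passed on the 3 Cappelli DS arrays, 49 on the 3 HS arrays and 50 on the 3 CS arrays, and 101 lay below the 60th percentile on all 3 Cappelli HS arrays. With each treatment taken alone and matched between cultivars, the rule was met by 402 PSs among control arrays, 234 among those of DS, 188 for HS and 105 for CS. The mirror rule, bright in Ofanto and near background in Cappelli, gave 126 for control, 117 for DS, 154 for HS and 122 for CS, and 35 under all treatments together.

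**Figure D2:**
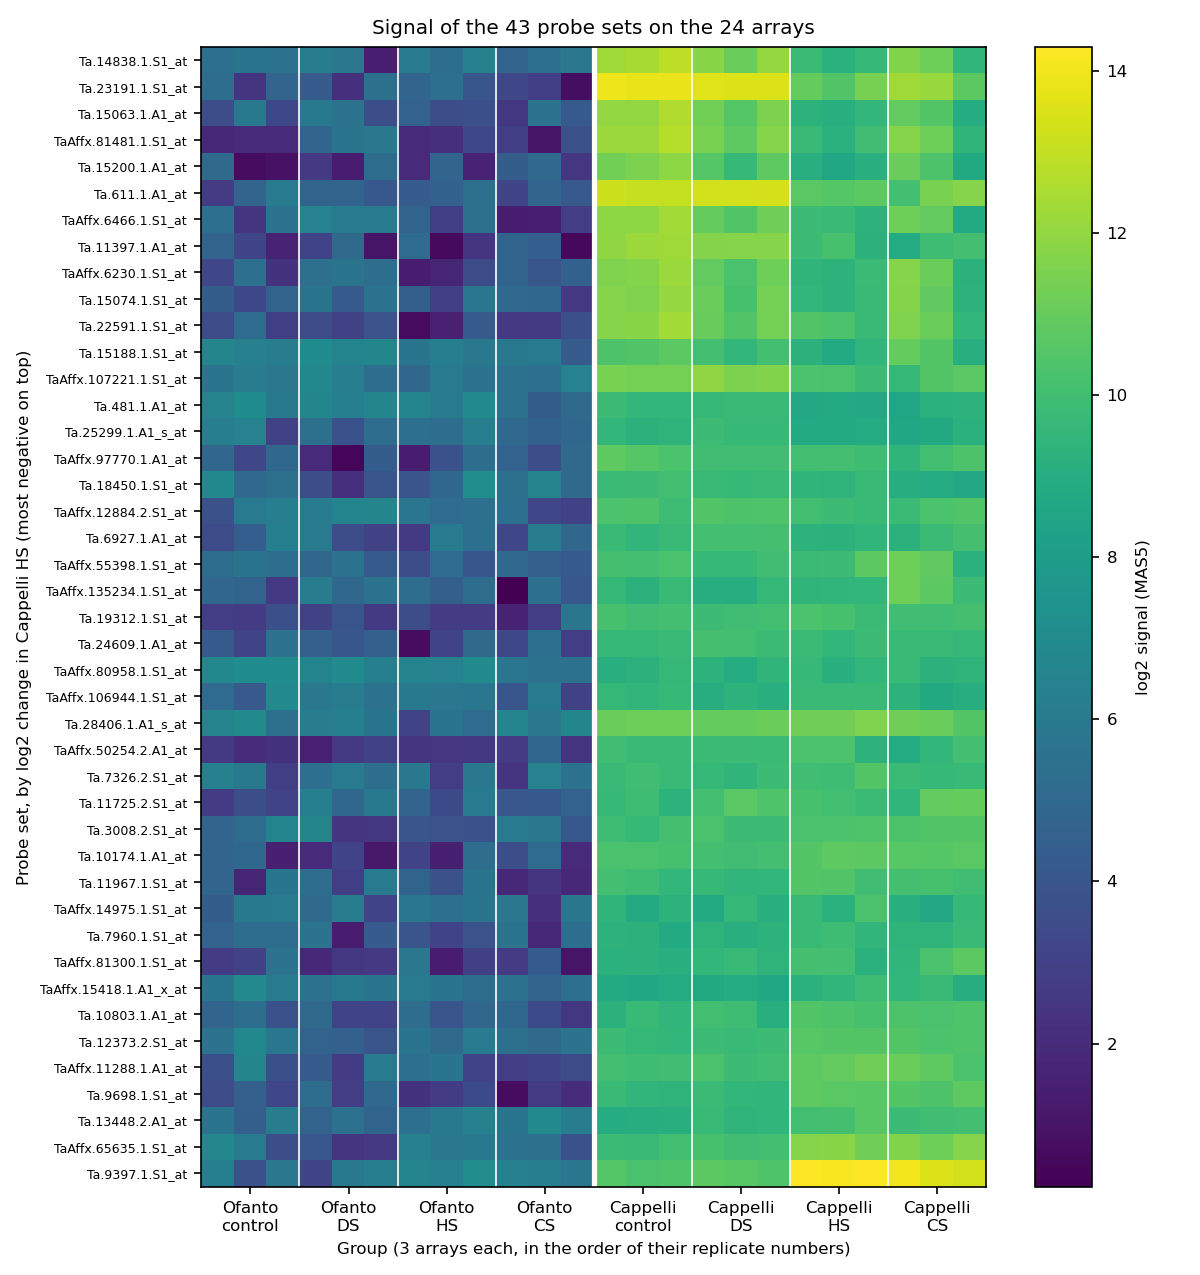
Log2 MAS5 signal (colour) of the 43 PSs (rows) on the 24 arrays (columns, 3 per group), with rows ordered by the log2 change of Cappelli HS against control. The left side, Ofanto, is dark in every row, and within Cappelli the top rows are dimmer and the bottom rows brighter on the HS and CS arrays than on the control and DS arrays.

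Only 2 of the 43 members have a name here, from the best Arabidopsis match in the paper's tables, of which the copy used here covers part of the array. Ta.15063.1.A1_at matches At3g04120, a cytosolic glyceraldehyde-3-phosphate dehydrogenase (GAPC), the enzyme of glycolysis that oxidises glyceraldehyde 3-phosphate. Ta.11967.1.S1_at matches At2g40090, a member of the ABC1 family of kinase-like proteins. The other 41 are unnamed in the sources used here, and none of the 43 appears in the platform's gene table. None of the 16 gene families fixed as word lists therefore held a member among its named PSs.

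The GAPC member read 11.7, 60.7 and 9.61 on the Ofanto control arrays, 61.3, 48.7 and 12.4 on the DS arrays, 25.7, 11.9 and 12.5 on the HS arrays and 5.69, 47.3 and 18.8 on the CS arrays. The Cappelli controls gave 4206, 4211 and 6371, DS plants 2567, 1555 and 2972, HS plants 651, 534 and 757, and CS plants 1925, 1479 and 488. The 3 HS arrays were the lowest together with CS array 3, and no stress array of Cappelli reached the controls. The array's own 5 control PSs for this enzyme were dim in both cultivars. One of them, AFFX-Ta-gapdh-5_at, averaged 222 ± 56.0 in Ofanto control and 255 ± 36.5 in Cappelli control (SD, n = 3). AFFX-Ta-gapdh-M_at averaged 126 ± 35.2 and 44.3 ± 48.8, higher in Ofanto. The others averaged 78.9 to 175 in these groups, from below to above the 60th percentile. That percentile was 134 to 144 on the Ofanto control arrays and 129 to 139 on the Cappelli control arrays.

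The ABC1 member was among the steadier ones in Cappelli. In Ofanto its control plants gave 28.7, 3.25 and 51.1, DS plants 38.4, 7.26 and 62.8, HS plants 27.5, 13.1 and 50.0, and CS plants 3.59, 5.09 and 3.43. The Cappelli values were 1086, 976 and 751 for control, 801, 717 and 753 for DS, 1461, 1443 and 1011 for HS, and 1118, 1166 and 1009 for CS. The control arrays overlapped with those of each stress in Cappelli, and no stress response was called (adjusted p = 0.89 in DS, 0.64 in HS and 0.82 in CS). Among the unnamed members, picked out after its values were seen, Ta.19312.1.S1_at was steadiest, with an SD of 0.144 on the log2 scale over the 12 Cappelli arrays and signals from 897 to 1267, against 3.07 to 53.7 in Ofanto.

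The members' identifiers differed from those of other bright PSs. Of the 43, 40 (93.0%) carried the suffix _at, against 79.2% of all PSs and 57.3% of the 11182 PSs above the 75th percentile on all 12 Cappelli arrays. Members with _s_at numbered 2 and with _x_at 1, and none had _a_at, a suffix of 16.0% of the bright PSs. The prefix TaAffx stood on 16 members (37.2%), against 48.5% of all PSs and 16.6% of the bright ones. The letter A in the middle of the identifier, in place of S, stood on 16 members (37.2%), against 17.4% and 17.1%, and the sources at hand do not say what it marks. No test was run on these shares.

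Identifiers also carry a cluster number, and PSs that share it were built from sequences grouped together. No cluster held more than 1 member, 28 members were alone in their cluster, and 15 had 20 other PSs between them. Of these 20 cluster mates, 12 exceeded the 75th percentile on no array of either cultivar, and 8 had a mean log2 signal at least 1 higher in Cappelli. A pattern close to that of the member appeared in 3 of them. Of these, Ta.12373.2.S1_x_at shares with its member also the sequence number after the cluster number (12373.2), so it does not stand for another sequence. Ta.611.2.S1_at averaged 3166 in Cappelli and 44.7 in Ofanto, Ta.12373.2.S1_x_at 780.0 and 21.4, and Ta.9698.2.A1_a_at 637 and 22.8. Each lay below the 60th percentile on all 12 Ofanto arrays and followed its member over the 12 Cappelli arrays, with Pearson's r of 0.97, 0.95 and 0.96. They missed the rule on 1, 1 and 3 Cappelli arrays.

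The opposite case was the cluster of Ta.3008.2.S1_at. This member gave from 794 to 1511 in Cappelli and from 5.01 to 98.4 in Ofanto, whereas its cluster mates were bright in both cultivars. Ta.3008.1.S1_a_at averaged 3294 ± 715 in Cappelli and 2602 ± 666 in Ofanto (SD, n = 12), and Ta.3008.1.S1_x_at 3805 ± 995 and 2836 ± 891. The first of these mates matches a putative signal peptidase, an enzyme that cuts the leader off secreted proteins, and the second has no name here. They were the only 2 of the 20 above the 75th percentile on all 12 Ofanto arrays. In this cluster, therefore, the Ofanto arrays gave a high signal at the mates and a signal near background at the member.

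**Figure D3:**
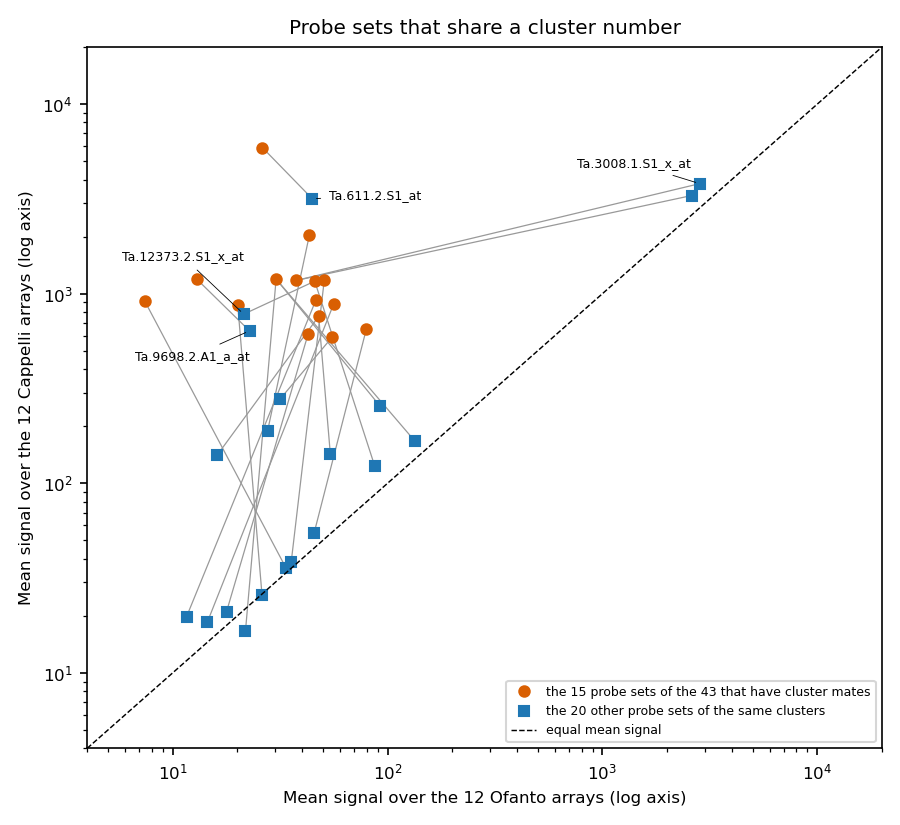
Mean MAS5 signal over the 12 Cappelli arrays against that over the 12 Ofanto arrays (both axes log) for the 15 members with cluster mates (circles) and their 20 mates (squares), joined by lines, with the line of equal signal dashed. The mates in cluster Ta.3008 lie near equality at averages of 2602 to 3805 units, 3 mates lie among the members, and most others lie low in both cultivars.

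In Cappelli, most members passed no test of a response to heat. Against control, limma called 9 of 43 members under HS, a call being a change of 2-fold or more with an adjusted p under 0.01, with 2 rises and 7 falls, where 11.2% of all 28072 PSs tested rose and 13.6% fell. The members' share of 20.9% was near that of all PSs tested. All 43 members entered the test, each through its Cappelli arrays. The median log2 change was 0.029 over members and -0.018 over all PSs tested. Regardless of the test, HS arrays and control arrays did not overlap for 13 members that were higher and 17 that were lower in HS, against 29.2% and 30.6% of all PSs tested.

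The rise was largest in Ta.9397.1.S1_at. Its signal was 1563, 1226 and 1393 in Cappelli control and 1696, 1592 and 1399 in DS, then 19603, 18352 and 20151 in HS and 16191, 12073 and 10208 in CS. All 6 arrays of heated plants lay above all 6 of the others. HS raised it 14.0-fold, a log2 change of 3.80 with an SE of 0.624 (adjusted p = 5.7e-05), and CS 9.08-fold (adjusted p = 0.00038). In Ofanto it stayed between 9.00 and 138 on all arrays. Its change there under HS was not called (adjusted p = 0.08), and the difference in HS response between cultivars was not called either (adjusted p = 0.045). The other rise, that of Ta.13448.2.A1_at, went from 495, 520.4 and 540.4 in control to 1072, 1142 and 1594 in HS, 2.41-fold (adjusted p = 0.0067).

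The rule kept every HS array of a member above the 75th percentile, so that a fall of several-fold could occur only in members that were bright in control. Ta.611.1.A1_at gave 9593, 8635 and 8703 in control and 10447, 10183 and 10817 in DS, but 1662, 1517 and 1753 in HS and 1113, 2863 and 3392 in CS. On the log2 scale it fell by 2.45 under HS, with an SE of 0.596 (adjusted p = 0.0022), and fell by 2.02 under CS (adjusted p = 0.0093), and no heated array overlapped with the controls. TaAffx.81481.1.S1_at went from 4571, 4661 and 6889 in control to 887, 594 and 1012 in HS and fell by 2.70 (adjusted p = 0.00094). Ta.14838.1.S1_at went from 5074, 5608 and 7732 to 916, 605 and 796 and fell by 2.99 (adjusted p = 0.0061). The GAPC member fell by 2.91 (SE 0.771, adjusted p = 0.0041) and Ta.23191.1.S1_at by 2.92 (SE 0.794, adjusted p = 0.005), to signals that were still far above those in Ofanto. Of the remaining calls, TaAffx.6230.1.S1_at fell by 2.28 and TaAffx.107221.1.S1_at fell by 1.24.

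**Figure D4:**
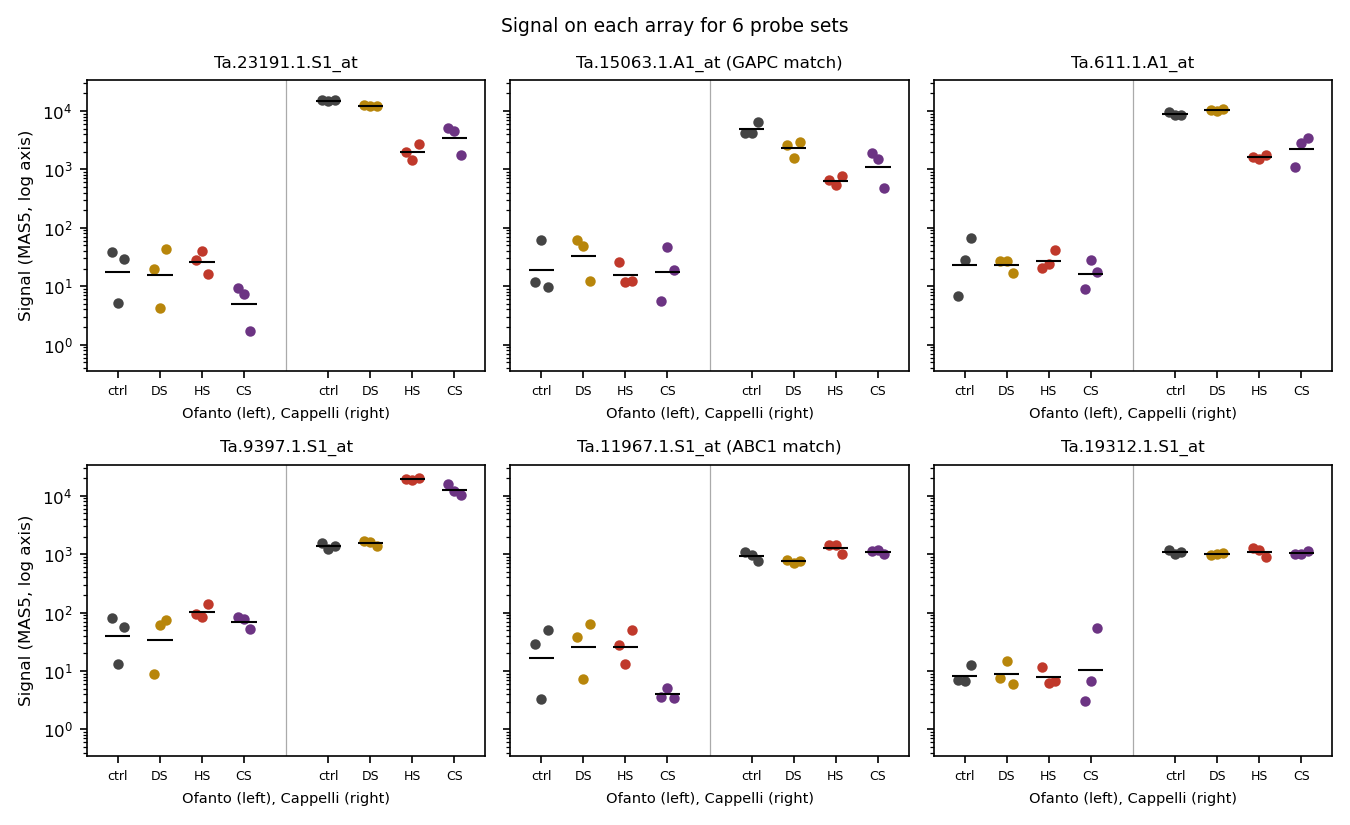
MAS5 signal (log axis) on each of the 24 arrays for 6 PSs, with a bar at the geometric mean of each group of 3 arrays, Ofanto on the left and Cappelli on the right of each panel. Ta.23191.1.S1_at, the GAPC match and Ta.611.1.A1_at are lower and Ta.9397.1.S1_at is higher in Cappelli HS than in control. Over all Cappelli arrays the ABC1 match stays between 717 and 1461 and Ta.19312.1.S1_at between 897 and 1267.

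The number of heat calls differed between fits of different arrays, and the part of the spread in this was not tested. The fit shares 1 estimate of spread per PS over all 24 arrays, and near background the log2 signal scatters widely. The members' median SD within a group was 0.621 to 0.996 in the Ofanto groups but 0.170 for control, 0.183 for DS, 0.229 for HS and 0.425 for CS in Cappelli. With the 12 Cappelli arrays alone, a fit added after the data were seen, 16 members were called under HS (4 rises, 12 falls), among them all 9 of the shared fit, against 10.5% and 12.6% of all PSs tested. In that fit the members' share of falls was above that of all PSs, and their share of rises was near it. The falls included the GAPC member and all 8 members that followed it from array to array, described below, so they are not separate observations. Unlike the members, the PSs tested include many that are not bright in Cappelli. The added calls were the rises of TaAffx.65635.1.S1_at (adjusted p = 6.2e-05) and Ta.9698.1.S1_at (adjusted p = 0.00021) and the falls of Ta.11397.1.A1_at, Ta.15074.1.S1_at, Ta.15200.1.A1_at, Ta.22591.1.S1_at and TaAffx.6466.1.S1_at. In the shared fit, leaving out any 1 of the 3 control arrays or of HS arrays 1 and 2 left 3 calls, and leaving out HS array 3 left 5. Ta.9397.1.S1_at, Ta.611.1.A1_at and TaAffx.81481.1.S1_at were called in all 6 of these fits.

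Under CS the shared fit called 2 members (4.65%) against control, the rise of Ta.9397.1.S1_at and the fall of Ta.611.1.A1_at. Of all PSs tested, 9.89% rose and 11.8% fell, so the members' share was below that of all PSs in this fit. With the 12 Cappelli arrays alone 9 were called, 3 rises and 6 falls, where 8.88% and 10.9% of all PSs tested were called. In that fit, unlike the shared one, the members' share was near that of all PSs. TaAffx.65635.1.S1_at, with 901, 830.2 and 1038 in control and 3189.8, 2378 and 3449 in CS, was among the rises (adjusted p = 9.3e-05). CS and control arrays did not overlap for 13 members that were higher and 14 that were lower in CS, against 25.1% and 30.1% of all PSs tested. Without Cappelli control replicate 1, 2 or 3 or Cappelli CS replicate 1 or 2, the call of Ta.611.1.A1_at was lost. None of the members was called between CS and HS (1 at an unadjusted p under 0.05, and 0 with the 12 Cappelli arrays or the methods' t-test), where 0.520% of all PSs tested rose and 0.399% fell in the shared fit and 0.0321% and 0.0249% in that of the 12 Cappelli arrays.

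No member was called under DS in Cappelli, and none reached an unadjusted p under 0.05 in the shared fit. In that fit 0.891% of all PSs tested rose and 0.445% fell. The fit of the 12 Cappelli arrays also called 0 members, with 0.214% and 0.157% of all PSs tested, and the methods' t-test called 0 members and 0 PSs in all after adjustment. DS arrays did not overlap with control arrays for 8 members that were higher and 16 that were lower in DS, against 17.0% and 19.2% of all PSs tested. The lower ones included the GAPC member, with a log2 change of -1.08 (SE 0.771, adjusted p = 0.47), Ta.15200.1.A1_at at -1.21 (adjusted p = 0.61) and TaAffx.6466.1.S1_at at -1.18 (adjusted p = 0.41). The highest was Ta.11725.2.S1_at at 0.76 (adjusted p = 0.44). Consequently, no member was called in the same direction under all 3 stresses.

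**Figure D5:**
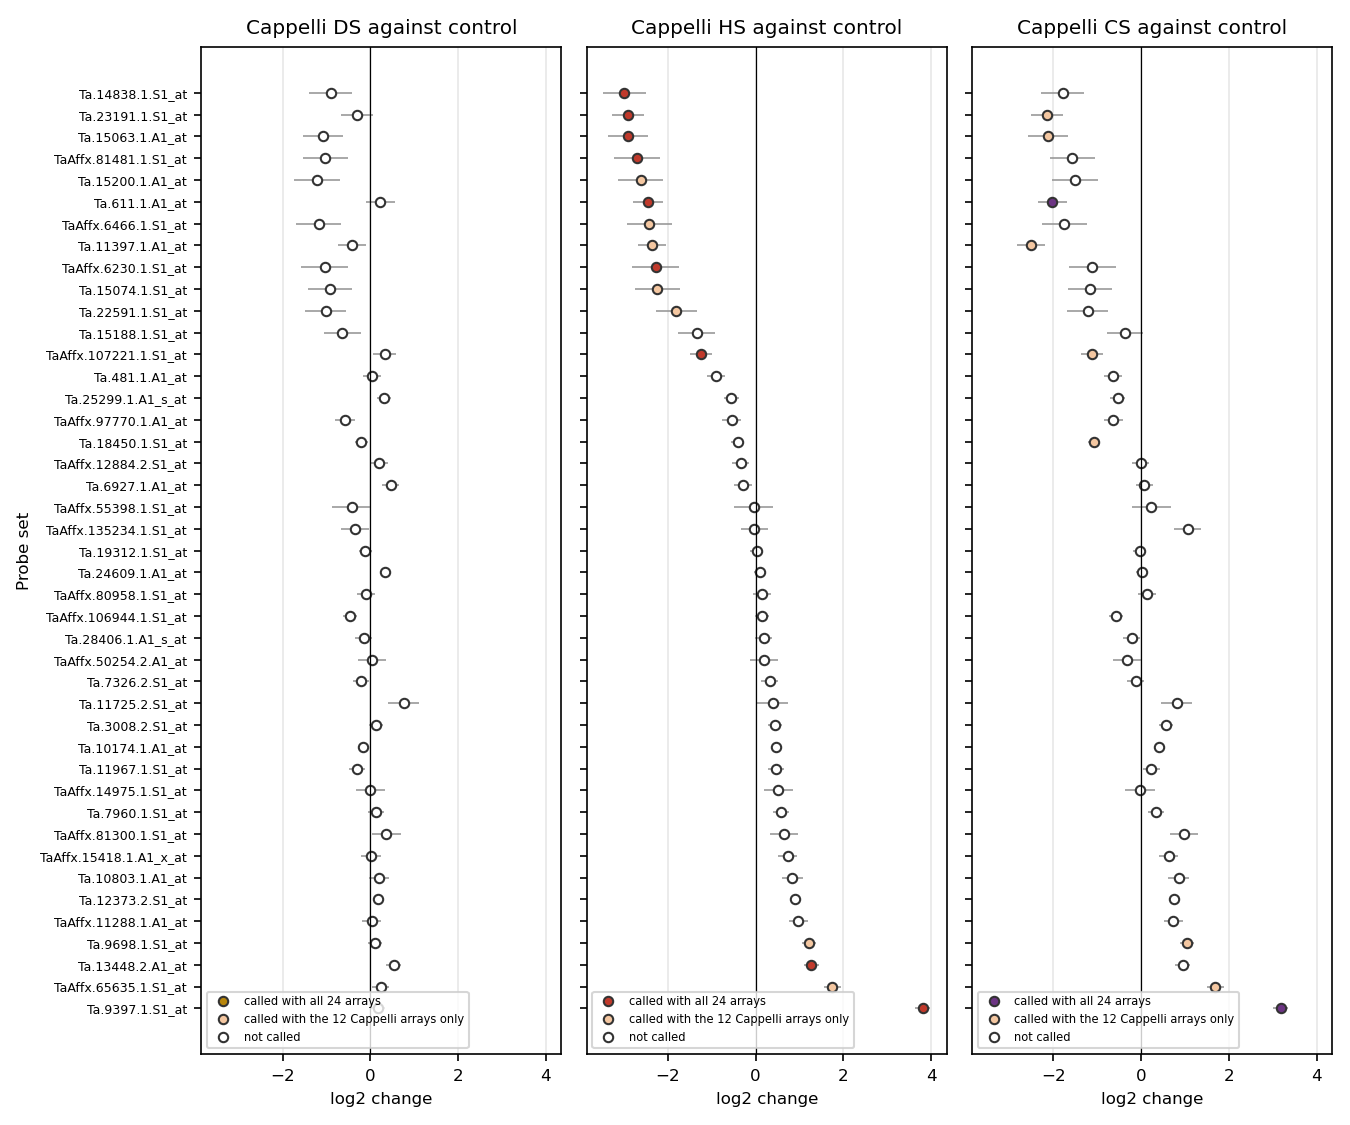
Log2 change of the 43 PSs in Cappelli DS, HS and CS against control, in the row order of the heat map, with bars of 1 SE from the fit of the 12 Cappelli arrays. Filled points are called with all 24 arrays (0, 9 and 2), pale points only with the 12 Cappelli arrays, and open points by neither fit.

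Members that fell in heat also tracked each other from array to array. As a description, with the set chosen after the values were seen, 8 members followed the GAPC member over the 12 Cappelli arrays with Pearson's r of at least 0.9. They were Ta.14838.1.S1_at (0.99), TaAffx.81481.1.S1_at (0.98), Ta.15200.1.A1_at (0.97), TaAffx.6466.1.S1_at (0.97), Ta.15074.1.S1_at, Ta.22591.1.S1_at, Ta.23191.1.S1_at and TaAffx.6230.1.S1_at. The geometric mean of the 9 was 4320, 4442 and 6034 on the control arrays, 2749, 1773 and 3200.0 on those of DS, 905, 713 and 908 on those of HS, and 2990, 2115 and 667 on those of CS. Control array 3 was the highest, DS array 2 was low for its group, and CS array 3 lay with the HS arrays while CS arrays 1 and 2 lay with DS. All 9 were lower than control in every stress, by a median of 2.03-fold in DS, 6.15-fold in HS and 2.95-fold in CS. Since they were chosen for following a member that was lower in every stress, this shared direction largely follows from the choice. Stress and control arrays did not overlap for 9 of them in DS, 9 in HS and 7 in CS, and none was called under DS. These points share arrays and treatments, so the correlation carries the difference between groups.

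Another 4 members, TaAffx.107221.1.S1_at (0.97), Ta.481.1.A1_at (0.97), Ta.11397.1.A1_at (0.94) and Ta.25299.1.A1_s_at (0.93), followed Ta.611.1.A1_at. Here CS array 1 was the lowest of the CS group (1113 against 2863 and 3392 for Ta.611.1.A1_at), so the CS arrays were ordered differently than in the GAPC set. Ta.9397.1.S1_at was followed by 5 members at r of at least 0.9, first Ta.12373.2.S1_at (0.97), Ta.9698.1.S1_at (0.96) and TaAffx.65635.1.S1_at (0.96), and ran opposite to Ta.611.1.A1_at (-0.97). No member followed the ABC1 member or Ta.19312.1.S1_at to that degree. The CS group had the widest spread among the Cappelli groups over all PSs tested too, with a median SD of 0.322 against 0.189 in control.

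In Ofanto the members entered the test only through their Cappelli arrays, and every change there is one between readings below the 60th percentile, with no exact size. DS called 4 members (2 rises, 2 falls, where 3.80% of all PSs tested were called), HS 1 fall (17.9%) and CS 5 falls (34.1%). With 32 units added before the logarithm, none of the 10 calls remained. TaAffx.81481.1.S1_at was among the DS rises, with 3.57, 3.78 and 3.91 in control against 28.1, 50.6 and 58.5, and TaAffx.80958.1.S1_at among the CS falls, with 113, 134 and 132 against 53.4, 44.2 and 45.2. The directions depended on the scaling. With arrays centred on their median or quantile normalized, the HS call became 1 rise of another member. CS then gave 1 rise and 2 falls after centring and 2 rises and 2 falls after quantile normalization. The median change of all PSs tested was -0.17 on the log2 scale under CS and that of the members -0.48. Without the Ofanto control replicates 2 and 3, whose descriptions name drought, 1 control array is left, assumed to vary like the other groups. DS then called 1 member, which was not among the 4, HS called 0 and CS called 4.

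The difference between the cultivars' responses was called for 2 members under DS (4.09% of all PSs tested), 1 under HS (13.7%) and 4 under CS (18.1%). Under HS it was TaAffx.81481.1.S1_at, which fell by 2.70 on the log2 scale in Cappelli and had signals of 3.75, 4.40 and 9.57 in Ofanto HS against 3.57, 3.78 and 3.91 in control. With Ofanto control replicates 2 and 3 left out, and so with 1 Ofanto control array, the differences called numbered 1, 1 and 2, and none of these was among the calls just given. The Ofanto side of every one of these differences lies near background, so a member that moves several-fold in Cappelli and is near background in Ofanto gives a difference with no exact size.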

How the data were processed

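RNA of 24 arrays was measured in 8 groups of 3, assigned from titles and source names. The deposited values are MAS5 intensity values on a linear scale, 1 per PS and array, which the authors scaled per array (MAS5 per the submitters' processing notes, with its version not given in the sources used here). As to scale, the Methods describe RMA for the authors' own expression analysis, so these are not the values the paper analysed, and low signals differ most between the 2 procedures. Detection calls were not used. After 111 control PSs were left out, percentiles were taken over the 61179 remaining PSs of each array.

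Log2 signals with no offset were fitted with limma 3.58.1 in R 4.3.3 (lmFit, eBayes), with 8 group means and 16 residual and 1.97 prior degrees of freedom. A PS was tested where all 3 arrays of at least 1 group exceeded the array's 60th percentile (28072 PSs). Moderated p-values were adjusted by Benjamini-Hochberg over these, and, as in the Methods, a call needed a change of 2-fold or more with an adjusted p under 0.01. There were 10 contrasts. Replicates are called biological triplicates in a randomized block design. Nothing ties their numbers to blocks, and p-values measure the spread between these arrays, whose number limits the precision. The script was tested on simulated data first.

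The members and lists were chosen with earlier results of these data known. Named PSs are the annotated members and that with the widest gap, the called members with the largest changes, members with informative cluster mates and those nearest the thresholds. Others singled out were chosen after their values were seen. Names are best Arabidopsis matches from the paper's tables, and sequences of the members are not given here. Alternatives were array centring, quantile normalization, no filter, an offset of 32, other array subsets, the methods' t-test, a replicate block, no minimum change, other percentiles and leaving out arrays. Chosen after the data were seen were the fit of the 12 Cappelli arrays and percentiles that include the control PSs. Python 3.11.15, pandas 2.3.3 and matplotlib 3.10.9 were used for descriptions and plots.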

Additional observations from a re-analysis of the deposited data

Results flagged for a closer look

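A response that differed between the cultivars was called for 7 combinations of member and stress. The Ofanto signals behind all 7 are below the 60th percentile of their arrays and the members were tested only through their Cappelli arrays, so the sizes, given as the log2 change in Cappelli minus that in Ofanto, are those of the fit and not exact. In 6 of the 7 the Cappelli change itself was not called. Under DS the difference was 1.84 for Ta.12373.2.S1_at, whose Cappelli change was 0.18, with 47.5, 109.8 and 54.9 in Ofanto control against 26.6, 23.3 and 14.7 in Ofanto DS. For TaAffx.81481.1.S1_at it was -4.56 under DS and -3.23 under HS, and the HS fall in Cappelli was called. Under CS it was 1.43 for Ta.12373.2.S1_at, 2.99 for Ta.9698.1.S1_at, 1.65 for TaAffx.15418.1.A1_x_at and 1.55 for TaAffx.80958.1.S1_at. For TaAffx.80958.1.S1_at the Cappelli groups overlapped (557, 615 and 771 in control, 861, 626 and 655 in CS) while Ofanto CS lay below control. Groups of 3 arrays were not screened for single outlying arrays.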

How the results depend on the processing

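Counts of members called are given in the order Cappelli HS and CS, Ofanto DS, HS and CS, and difference in DS, HS and CS response, where the reported values are 9, 2, 4, 1, 5, 2, 1 and 4. With 32 units added before the logarithm they were 17, 12, 0, 0, 0, 1, 13 and 8. With only the groups compared in the fit they were 17, 5, 1, 0, 1, 1, 4 and 2, and with no filter on low values 3, 1, 3, 0, 2, 1, 0 and 1. The fit of the 12 Cappelli arrays gave 16 and 9 for HS and CS. The methods' t-test gave 7, 0, 0, 0 and 1 for the first 5, after Benjamini-Hochberg, and 16 members under Cappelli HS at the unadjusted threshold. Centring on the median moved Ofanto CS to 3 and the CS difference to 2, and quantile normalization gave 2 for the HS difference and 2 for the CS difference. The single Ofanto HS call turned from a fall to a rise of another member under centring and quantile normalization. Without Ofanto control replicates 2 and 3, which leaves 1 such array, Ofanto DS gave 1, Ofanto HS 0, the DS difference 1 and the CS difference 2. Leaving out 1 array at a time gave 3 to 5, 1 to 2, 2 to 5, 0 to 2, 4 to 5, 1 to 3, 0 to 2 and 1 to 5. Cappelli DS and Cappelli CS against HS stayed at 0 in every alternative run. Over log2 changes of the 43 members in Cappelli DS, HS and CS, no called value changed sign.

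With the replicate block, Ofanto HS moved to 0 and Cappelli HS gave 7. Same-numbered arrays of different groups showed no common deviation, with a mean r of -0.003 (-0.246 to 0.073). That does not settle whether the numbers stand for the blocks of the design. The number of members was 23 with the 80th percentile in Cappelli, 25 with the 50th in Ofanto, 83 with the 70th and 65th percentiles, 43 to 44 with 1 array left out, and 43, of which 42 shared, with control PSs in the percentiles. The cause of these changes was not tested. Fits with fewer arrays also have fewer degrees of freedom, and the part of this in the counts was not tested either. Signals near background limit every value in Ofanto.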
